A study of Mus musculus with 76 samples.

Results

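The transcripts described here come from 10 genes of the epididymis, the coiled duct in which sperm mature after leaving the testis, measured in libraries of visceral adipose tissue (VFAT) from male mice. The genes are Gpx5, Adam7, Lcn5, Lcn8, Lcn9, Rnase10, Cst11, Teddm2, Crisp1 and Spink8, which are 10 of the 54232 genes in the count table. They were taken as a fixed list because earlier results of these data had shown them at high level in sham-operated animals, so the difference between the sham arm and the nephrectomy arm is what chose them and is given below as a description without a p-value. The other comparisons between arms were not used in that choice and are given with their tests.

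All animals were 12-week-old males of the immunodeficient Fox Chase SCID strain, CB17/Icr-Prkdcscid/IcrlcoCrl, so the controls carry the Prkdc scid mutation too. The Sham arm had the sham operation and no transplant. The PNx arm had partial nephrectomy, the removal of part of the kidney mass that models chronic renal failure, and no transplant. In the other 3 arms nephrectomised mice received a transplant named in the labels as Control Cells, Lenti-adipo-NaKtide or Lenti-adipo-scrambled, called control cells, NaKtide cells and scrambled cells here. NaKtide is a peptide that blocks signalling from the Na/K-ATPase to the kinase Src, and the scrambled peptide is its control. Each arm had 5 VFAT libraries. In the scrambled cells arm, number 3 was sequenced as 2 libraries, which were added together, so that 25 libraries stand for 24 samples with n = 4 in that arm and n = 5 in the others. Whether each library is a separate animal is not in the labels, so the p-values measure the spread between these samples, which may be technical. The visceral depot is not named either.

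The epithelium of the epididymis secretes proteins that coat passing sperm, and its genes are switched on in a fixed order along the duct, from the initial segment next to the testis through the caput and corpus to the cauda. Most of these genes depend on androgen, and those of the initial segment also depend on fluid factors arriving from the testis. The epididymis of the mouse lies against a large visceral fat pad, the epididymal fat.

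The VFAT libraries held 5666563 to 20037187 counts, with a median of 7807674. Adipocyte genes were present in every library: Adipoq, which encodes adiponectin, had a median of 646 FPKM (fragments scaled by transcript length and library size) in the Sham samples, and Fabp4, the adipocyte fatty acid binding protein, had 712.3 FPKM. The summed level of 10 adipocyte genes was lowest in Sham 4 and Sham 1, at 3598 and 5642 CPM (counts scaled to 1000000 counts in the sample), against 13560 in Sham 5, 15380 in Sham 3, 25580 in Sham 2 and 15970 to 27960 CPM in the other 19 samples. Sham 1 and Sham 4 are also the samples with the most epididymal transcripts, as shown next, and the part of the adipocyte share in the differences below was not tested. A change in the number of epididymal cells and a change in RNA per cell cannot be told apart in bulk tissue.

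The 10 genes together took 4.504% of all counts in Sham 1, 3.645% in Sham 4, 1.643% in Sham 5 and 1.291% in Sham 3, but 0.0462% in Sham 2. In PNx 2 they took 0.0157%, and in the other 18 samples between 0.000281% and 0.00518%. Sham 2 was therefore the low sample of its arm, PNx 2 the highest of the 19 samples outside it, and the arms did not overlap for the sum.

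The secreted enzyme Gpx5, an epididymal glutathione peroxidase that protects sperm from oxidation, was the most abundant of the 10 per unit of length. It lies at chr13:21286429-21292731 (GRCm38). Its level was 15330, 216, 5876, 13370 and 6671 CPM in Sham 1 to Sham 5, from 90491, 1342, 56355, 84614 and 56715 counts. In PNx 1 to PNx 5 it was 0.353, 81.2, 3.86, 1.22 and 2.69 CPM. The control cells arm ranged from 1.45 to 4.81 CPM, the NaKtide cells arm from 0.0803 to 7.83 CPM and the scrambled cells arm from 0.272 to 21.8 CPM. All 5 Sham samples were above all 19 others, and Sham 2 stood only a few-fold above PNx 2. Gpx5 had a count above 0 in each of the 19 samples outside Sham, with 1 to 737 counts.

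Adam7, a membrane protein of the ADAM family that epididymal cells pass on to sperm, lies at chr14:68497336-68533741. It was at 8299, 51.9, 1735, 7214 and 3007 CPM in Sham 1 to Sham 5. In PNx 1 to PNx 5 it was at 0.176, 23.3, 0.890, 0.761 and 0.257 CPM, and in the 3 arms with cells at 0 to 6.28 CPM. Its samples were ordered much like those of Gpx5, with Sham 1 and Sham 4 highest, Sham 2 lowest of the arm and PNx 2 highest outside it, and the groups did not overlap.

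Lcn8, Lcn5 and Lcn9 are lipocalins, small barrel-shaped proteins that carry lipophilic molecules, and Lcn5 binds retinoic acid. They belong to a cluster on chromosome 2, where Lcn8 at chr2:25653120-25656217 and Lcn5 at chr2:25657952-25661977 are direct neighbours on the plus strand and Lcn9 lies at chr2:25823153-25825537. In the mouse Lcn8 and Lcn9 are known as genes of the initial segment and Lcn5 as a gene of the more distal caput. Rnase10, a secreted protein of the ribonuclease A family without the usual catalytic residues, lies at chr14:51007751-51010758 and is also known from the initial segment. The 250 bases before the RefSeq transcript starts (GRCm38.p6, plus strand) are shown for these 4 genes because the neighbours Lcn8 and Lcn5 stood in opposite order between Sham samples, while Lcn9 and Rnase10 followed Lcn8.
Lcn8, chr2:25652868-25653117: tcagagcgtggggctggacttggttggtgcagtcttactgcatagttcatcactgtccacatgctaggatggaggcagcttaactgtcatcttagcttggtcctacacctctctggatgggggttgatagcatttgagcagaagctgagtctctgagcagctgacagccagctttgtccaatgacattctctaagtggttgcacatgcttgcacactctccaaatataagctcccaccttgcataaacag
Lcn5, chr2:25657702-25657951: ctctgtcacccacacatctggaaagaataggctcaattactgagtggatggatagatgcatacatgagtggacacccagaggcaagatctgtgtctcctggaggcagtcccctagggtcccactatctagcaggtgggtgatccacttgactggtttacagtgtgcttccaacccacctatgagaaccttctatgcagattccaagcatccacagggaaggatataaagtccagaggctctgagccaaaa
Lcn9, chr2:25822903-25823152: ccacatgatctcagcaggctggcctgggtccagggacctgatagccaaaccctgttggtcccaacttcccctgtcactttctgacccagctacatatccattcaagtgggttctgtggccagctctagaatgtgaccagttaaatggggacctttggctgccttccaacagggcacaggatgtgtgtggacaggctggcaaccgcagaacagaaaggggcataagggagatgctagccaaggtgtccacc
Rnase10, chr14:51007501-51007750: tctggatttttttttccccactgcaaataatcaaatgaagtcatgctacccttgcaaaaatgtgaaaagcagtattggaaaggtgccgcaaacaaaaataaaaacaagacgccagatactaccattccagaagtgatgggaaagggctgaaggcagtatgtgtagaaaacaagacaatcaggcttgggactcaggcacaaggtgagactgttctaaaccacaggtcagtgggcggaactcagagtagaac

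RefSeq's promoter table had 8 such windows for 7 of the 10 genes, with 2 overlapping windows for Rnase10, and none was used for Adam7, Cst11 and Spink8. The core of ETS factors, the family of Etv4, spelled AGGAAG or CTTCCT and searched on both strands, occurred in 1 of the 8 windows, the Rnase10 window that is not shown, 133 bases before its start, and in 29.5% of the 32851 windows of the same length. The 4 windows shown hold no match and so no capitals.

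Lcn8 was at 4344, 44.5, 90.6, 2355 and 1041 CPM in Sham 1 to Sham 5. In PNx 1 to PNx 5 it was at 0, 8.38, 0.445, 0 and 0.641 CPM, and in the arms with cells at 0 to 2.40 CPM. Sham 1 was highest, and Sham 3 was nearly as low as Sham 2, unlike the order for Gpx5. Lcn9 showed the same order, with 4178, 36.0, 91.5, 2481 and 1080 CPM in Sham 1 to Sham 5 and 0, 7.17, 0.742, 0.152 and 0.128 CPM in PNx 1 to PNx 5. Rnase10 was at 4661, 35.5, 159.9, 2719 and 1110 CPM in Sham 1 to Sham 5 and at 0.176, 8.60, 0.890, 0.152 and 0.257 CPM in PNx 1 to PNx 5. For these 3 genes the Sham samples lay above all others, and PNx 2 was the highest of the others.

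Lcn5 had another order within Sham, with 672.6, 4.03, 2998, 3238 and 1469 CPM in Sham 1 to Sham 5. In PNx 1 to PNx 5 it was at 0, 13.3, 1.04, 0.456 and 0.513 CPM. Its highest level was 4.40 CPM in the control cells arm, 13.5 CPM in the NaKtide cells arm and 4.74 CPM in the scrambled cells arm. Sham 3 and Sham 4 were high, and Sham 2 lay below PNx 2, control cells 2, NaKtide cells 4, scrambled cells 1 and scrambled cells 2, so the groups overlapped.

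Spink8, of a family of secreted serine protease inhibitors, lies at chr9:109812280-109826633 and followed Lcn5 rather than Lcn8. It was at 281.9, 5.0, 1534, 1295 and 516.3 CPM in Sham 1 to Sham 5 and at 0.176, 2.53, 0.148, 2.43 and 0.128 CPM in PNx 1 to PNx 5. Sham lay above PNx, but Sham 2 was exceeded by scrambled cells 2 at 19.99 CPM, NaKtide cells 5 at 12.1 CPM and scrambled cells 1 at 5.95 CPM.

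Cst11, a cystatin of the group of protease inhibitors made in the male tract, lies at chr2:148768609-148771497. It was at 2235, 21.3, 335.1, 1434 and 616.2 CPM in Sham 1 to Sham 5 and at 0, 4.63, 0.148, 0.304 and 0.257 CPM in PNx 1 to PNx 5. It had no count in 7 of the 19 samples outside Sham, and the Sham samples lay above all of these.

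Crisp1, a cysteine-rich secretory protein that binds to sperm and acts in fertilisation, lies at chr17:40293758-40319207. It was the least abundant per length and was at 882.3, 17.3, 31.3, 292.0 and 104.6 CPM in Sham 1 to Sham 5. In PNx 4 it was at 6.69 CPM and in PNx 2 at 1.10 CPM, while PNx 1, PNx 3 and PNx 5 had no count. Scrambled cells 2, with 18.3 CPM, lay above Sham 2, so the groups overlapped in that sample alone.

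Teddm2 encodes a transmembrane protein named for its epididymal expression. It was at 4159, 30, 61.6, 2055 and 819.1 CPM in Sham 1 to Sham 5 and at 2.12, 6.72, 2.22, 1.07 and 2.31 CPM in PNx 1 to PNx 5. The Sham samples were above all others, but Teddm2 kept a level of 0.778 to 6.72 CPM in the 19 other samples with no sample at 0. Its annotated span at chr1:153849542-153900228, on the minus strand, overlaps 5 genes, among them Teddm1a, Teddm1b and the glutamine synthetase gene Glul on the plus strand. The sources used here do not say whether counting used the strand, so the reads of Teddm2 and of these genes cannot be told apart. The other 9 genes overlap no annotated gene.

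**Figure D1:**
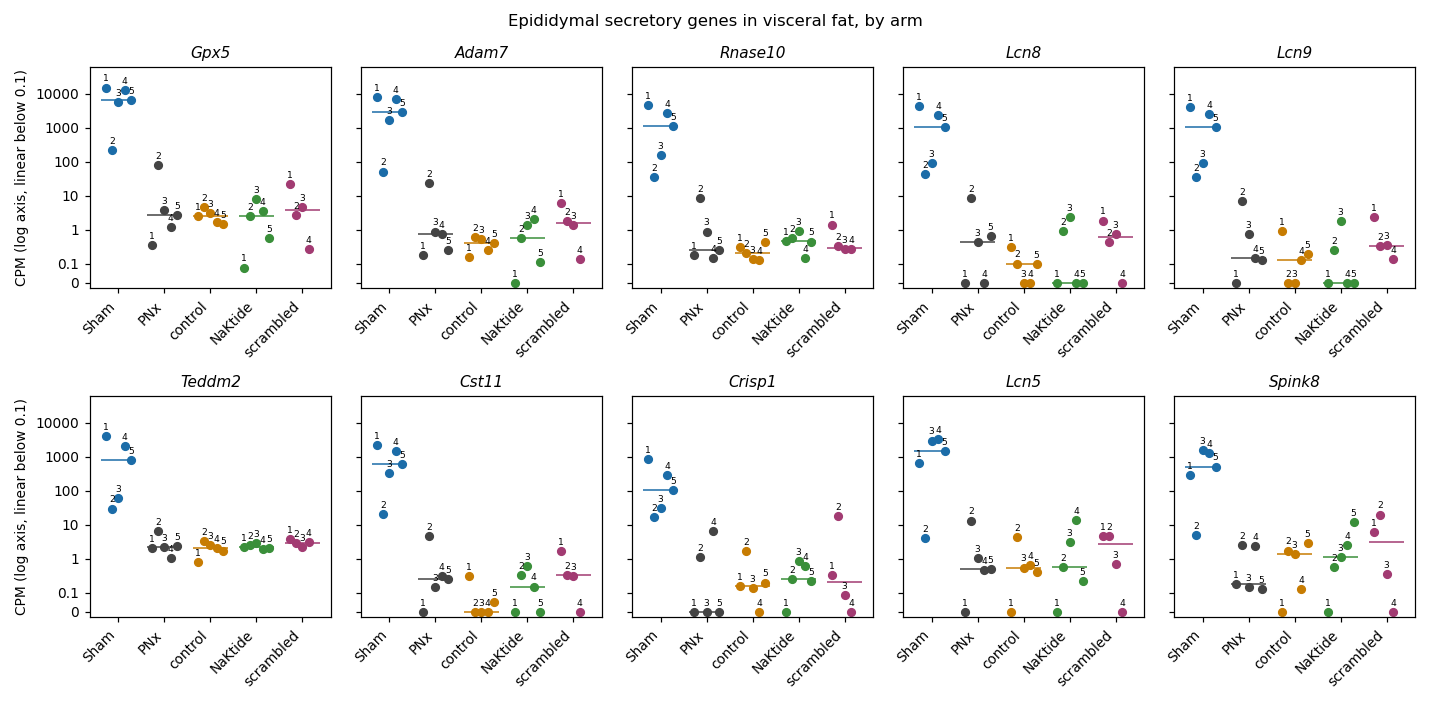
Level of each of the 10 genes (CPM, log axis that is linear below 0.1) in the 24 VFAT samples by arm; each point is a sample with its number above it, and the line is the arm's median. Sham 2 is the lowest Sham sample in every panel, PNx 2 is the highest PNx sample in all panels but Crisp1, and Lcn5, Crisp1 and Spink8 are the 3 panels in which a sample of another arm exceeds Sham 2.

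Compared per length on the FPKM scale, Gpx5 had a median of 3374 FPKM in Sham, above Lcn5 at 1410, Lcn8 at 1355, Lcn9 at 1090 and Cst11 at 848. Adam7 at 588, Rnase10 at 565 and Spink8 at 533 followed, and Teddm2 at 141 and Crisp1 at 62.5 FPKM were lowest. Gpx5 ranked 1 in each of the 5 Sham samples. The order below it was not stable: Lcn5 ranked 8 in Sham 1, 10 in Sham 2 and 2 in the other 3 samples, and Lcn8 ranked 6 in Sham 3 and 2 or 3 elsewhere. Lcn8 was nevertheless above Lcn9, and Cst11 above Adam7, in each of the 5 Sham samples. The order of the medians from Lcn5 down to Spink8 was not tested.

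The fitted difference between PNx and Sham, which is the difference the genes were chosen by, was negative for all 10. On the log2 scale it was -8.87 ± 1.56 (SE) for Gpx5, a 468-fold lower level in PNx, and -9.62 ± 1.498 for Adam7. It ran from -9.79 ± 1.53 for Lcn9 and -9.66 ± 1.27 for Rnase10 to -7.37 ± 1.55 for Crisp1, with Lcn8 at -9.60 ± 1.504, Lcn5 at -9.07 ± 1.79, Spink8 at -9.35 ± 1.71, Cst11 at -9.62 ± 1.23 and Teddm2 at -8.89 ± 1.05. The median was -9.47, and that of all 17552 genes tested was 0.0077. The calls are given as a count, which the choice of the genes fixed and which is no support for the difference. At an adjusted p under 0.05, 10 of 10 were called lower, where 13% of all genes were called in either direction and 8.18% lower in PNx. The test over the 5 arms holds the same difference, and it called all 10 and 18.4% of all genes. Over the 4 arms without Sham it called none of the 5 genes that passed the filter there (lowest edgeR adjusted p = 0.274, for Adam7). Every Sham sample exceeded every PNx sample for 9 of 10, all but Lcn5, and for 1.36% of all genes. Every Sham sample exceeded all 19 others for 7 of 10, all but Lcn5, Crisp1 and Spink8, and for 0.393% of all genes. All 10 genes passed the filter on low counts, but 5 of them, Lcn8, Lcn9, Rnase10, Cst11 and Crisp1, passed it only through the Sham arm and had to differ.

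The size of these differences rested on single samples. Without PNx 2, 8 of the 10 differences moved by over 1.5 times, to -11.91 for Gpx5 and -12.83 for Adam7, Teddm2 and Crisp1 being the exceptions. Without PNx 4 that of Crisp1 was -9.60. Without Sham 1, 6 moved by over 1.5 times toward 0, Crisp1 the most, to -6.12. Without Sham 2 none moved as far, and the values lay between -10.10 for Lcn9 and -7.68 for Crisp1.

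**Figure D2:**
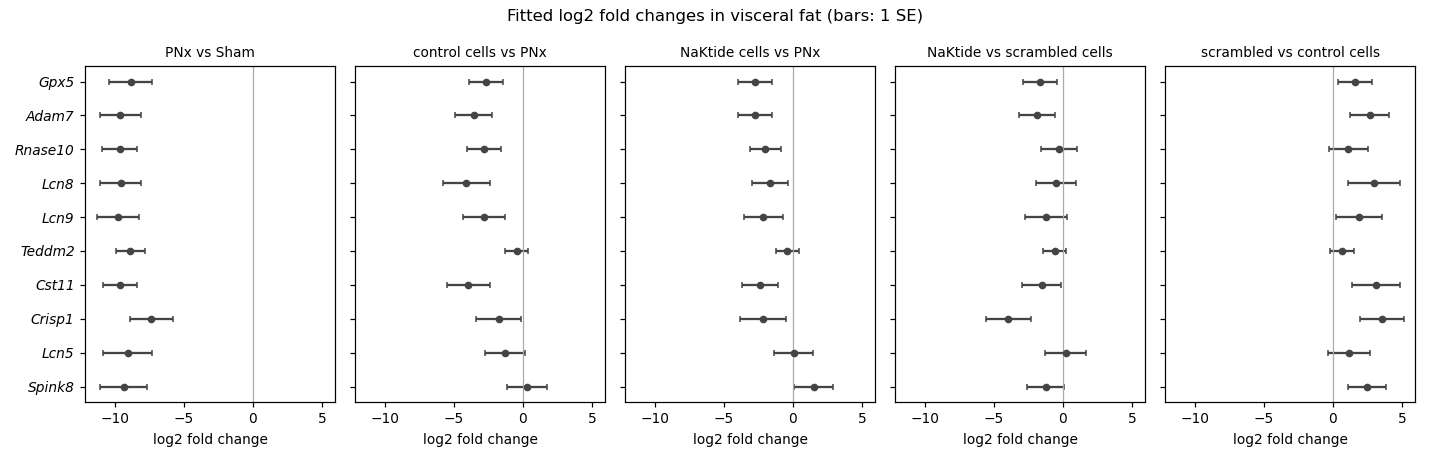
Fitted log2 fold change of each gene in 5 comparisons of VFAT arms (points, with bars of 1 approximate SE, derived from the F statistic). All 10 points lie between -9.79 and -7.37 for PNx against Sham, and in the other 4 comparisons none passed the test.

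Within Sham, the make-up of the transcripts was compared as counts per 100 Gpx5 counts. This scales by Gpx5 and not by the total amount of epididymal RNA, so a ratio also moves when Gpx5 alone changes. Intervals here are exact 95% binomial ones and cover counting error only. Per 100 Gpx5 counts, Lcn8 had 28.3, 20.6, 1.54, 17.6 and 15.6 in Sham 1 to Sham 5, and Lcn9 had 27.3, 16.6, 1.56, 18.6 and 16.2. Rnase10 had 30.4, 16.4, 2.72, 20.3 and 16.6. These genes of the initial segment thus lay between 15.6 and 30.4 in 4 samples and at 1.54 to 2.72 in Sham 3, where the interval of Lcn8 was 1.44 to 1.65 against 18.0 to 23.4 in the sparsely counted Sham 2. Teddm2 behaved likewise, with 27.1 in Sham 1 and 1.05 in Sham 3.

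The caput gene Lcn5 ran the other way, with 4.39, 1.86, 51.0, 24.2 and 22.0 per 100 Gpx5 counts in Sham 1 to Sham 5. Spink8 had 1.84, 2.31, 26.1, 9.69 and 7.74. Sham 3 was highest for both, and Sham 1 and Sham 2 were lowest, so that the neighbours Lcn8 and Lcn5 stood in reverse order: Lcn8 was 18.4-fold higher in Sham 1 than in Sham 3 per Gpx5 count, and Lcn5 was 11.6-fold higher in Sham 3 than in Sham 1. Adam7 and Cst11 varied least, from 24 in Sham 2 to 54.1 in Sham 1 and from 5.70 in Sham 3 to 14.6 in Sham 1. Crisp1 had 5.76, 7.97, 0.532, 2.18 and 1.57, and so was low where Lcn8 was low, although in the mouse it is known for high expression toward the distal duct. Between Sham 1 and Sham 3, 7 of the 9 genes were higher per Gpx5 count in Sham 1, and only Lcn5 and Spink8 were higher in Sham 3. These are differences between single samples, without a test.

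**Figure D3:**
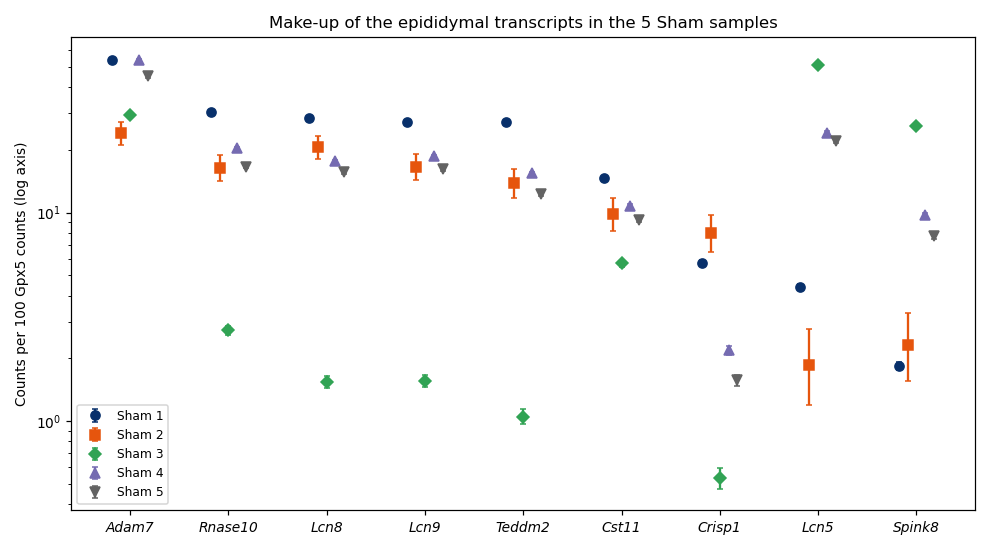
Counts of 9 genes per 100 Gpx5 counts in the same sample (log axis), for Sham 1 to Sham 5; bars are exact 95% binomial intervals. Sham 3 is lowest for Rnase10, Lcn8, Lcn9, Teddm2, Cst11 and Crisp1 and highest for Lcn5 and Spink8.

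The same division ran through a wider list of epididymal secretory genes, chosen like the 10 with earlier results known. Of its 25 genes with a row of counts, 24 were above 0 in Sham 1 or Sham 3. Per Gpx5 count 9 of these were higher in Sham 1 and 15 in Sham 3, over 3-fold in 7 and 8 of them. Adam28, another ADAM family gene, had 27.1 per 100 Gpx5 counts in Sham 1 and 0.383 in Sham 3, and Cst8, a cystatin known from the initial segment, had 2.78 and 0.334. In the other direction Rnase9, a caput gene, had 1.75 in Sham 1 and 22.4 in Sham 3, and Lcn12 had 0.454 and 4.92. The transcription factor Etv4 and the receptor tyrosine kinase Ros1 are both known from the initial segment. Per 100 Gpx5 counts they had 0.85 and 1.73 in Sham 1 and 0.0231 and 0.552 in Sham 3. Among other epididymal regulators, Pax2 and Esr1 went the other way, with 0.148 and 0.323 in Sham 1 and 0.41 and 0.477 in Sham 3. Between arms, 22 of the 25 passed the filter, and 21 were called lower in PNx than in Sham and 0 higher, with a median log2 fold change of -9.51. The exception among the 22 was Cd52, a surface glycoprotein that leukocytes also make. Of all genes, 8.18% were called lower. As the list was chosen with earlier results known, these calls are a description and no support for the difference. Several of its genes were near 0 outside Sham: Lcn6, Crisp4 and Defb41 had no count in 14 of the 19 samples each.

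Outside Sham the level of the 10 genes was low but seldom 0. PNx 2 was the highest of the 19 samples for Gpx5, Adam7, Lcn8, Lcn9, Rnase10, Cst11 and Teddm2, and scrambled cells 1 came next for all of these but Lcn8. PNx 2 had 28.6 Adam7, 16.4 Lcn5, 10.3 Lcn8, 8.82 Lcn9 and 10.6 Rnase10 counts per 100 of its 737 Gpx5 counts. These 5 values lay inside the range of the Sham samples. Scrambled cells 1, with 198 Gpx5 counts, had 28.8 for Adam7, 21.7 for Lcn5 and 8.59 for Lcn8, again inside the Sham range. Its Spink8 value, 27.3, lay above the highest Sham value of 26.1. Of the 12 samples outside Sham with at least 20 Gpx5 counts, 11 were inside the Sham range for Rnase10, 9 each for Lcn5 and Lcn9, 8 for Lcn8, 7 for Cst11 and 4 for Adam7.

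For Crisp1 4 of the 12 were inside that range, for Spink8 6 and for Teddm2 2. Scrambled cells 2 held 165 Crisp1 and 180 Spink8 counts against 25 Gpx5 counts, or 660 and 720 per 100. PNx 4 held 44 Crisp1 counts against 8 of Gpx5, a share of Crisp1 among the sum of both of 84.6% (95% interval 71.9 to 93.1), where the Sham samples had 0.530% to 7.38%. NaKtide cells 5 held 107 Spink8 counts against 5 of Gpx5, and NaKtide cells 4 held 89 Lcn5 counts against 23. In 9 of the 19 samples outside Sham a gene other than Gpx5 had the most counts: Teddm2 in 4, Spink8 in 3, and Crisp1 and Lcn5 in 1 each. Gpx5 had the most in the other 10 and in every Sham sample. Marker genes of other male organs were also present in some of them. The summed level of 7 seminal vesicle genes was 49010 CPM in NaKtide cells 5 and 1.44 CPM in scrambled cells 2. Of the 2 genes listed for the vas deferens, Pate4 was highest in NaKtide cells 5, at 2912 CPM. The other, Akr1b7, was highest in scrambled cells 2, at 112 CPM, so the sum of both mixes 2 patterns. The 2 sums were also high in control cells 4, at 2972 and 158.5 CPM, which had no Crisp1 count and 0.129 CPM of Spink8. In control cells 5 they were 2354 and 132 CPM, with 57 Spink8 and 4 Crisp1 counts against 29 of Gpx5. In scrambled cells 3 they were 1636 and 70.0 CPM, with 8 Spink8 counts against 106 of Gpx5. In control cells 3 they were 1171 and 61.8 CPM, with 10 Spink8 counts against 22 of Gpx5. They were low in PNx 4, at 2.74 and 0.152 CPM. The summed level of 4 prostate genes was 208.8 CPM in control cells 5 and 89.55 CPM in control cells 3. The next highest sample, scrambled cells 1, had 2.97 CPM of them. The part of these organs in the levels of Crisp1 and Spink8 was not tested.

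Across the 19 samples outside Sham, taken over 4 arms, the genes were set against Gpx5 on the scale log2(CPM + 0.1). Adam7 followed Gpx5 with Pearson r = 0.907 (permutation p = 1e-05, adjusted 3e-05) and Spearman rho = 0.846 (permutation p = 2e-05, adjusted 0.000135). Lcn5 had r = 0.804 (permutation p = 1e-05, adjusted 3e-05) and rho = 0.867 (permutation p = 3e-05, adjusted 0.000135), and Lcn8 had r = 0.818 (permutation p = 1e-05, adjusted 3e-05) and rho = 0.746 (permutation p = 0.00049, adjusted 0.00147). A p of 1e-05 is the smallest that 100000 permutations can give, and the adjustment is over 9 relations. Without PNx 2 and NaKtide cells 1, the samples farthest from the median of Gpx5, r was 0.809, 0.731 and 0.730 for these 3 genes. Cst11 and Lcn9 also kept positive values, with r = 0.825 (adjusted permutation p = 6.75e-05) and rho = 0.635 (adjusted permutation p = 0.0106) for Cst11, and r = 0.764 (adjusted permutation p = 0.000234) and rho = 0.543 (adjusted permutation p = 0.0316) for Lcn9. Their r without those samples was 0.715 and 0.608.

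The relation was weaker for the others. Rnase10 had r = 0.648 (adjusted permutation p = 0.00598) but rho = 0.318 (adjusted permutation p = 0.184). Teddm2 had r = 0.509 and rho = 0.509 (adjusted permutation p = 0.0366 and 0.0414), with r = 0.302 once PNx 2 and NaKtide cells 1 were left out, so its relation rests on those samples. Crisp1, with r = 0.346 and rho = 0.464 (adjusted permutation p = 0.148 and 0.0598), and Spink8, with r = 0.393 and rho = 0.362 (adjusted permutation p = 0.106 and 0.145), did not pass. Many of these values rest on a few counts: Lcn8 had none in 8 of the 19 samples, Cst11 in 7, and Lcn9 and Crisp1 in 6 each.

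**Figure D4:**
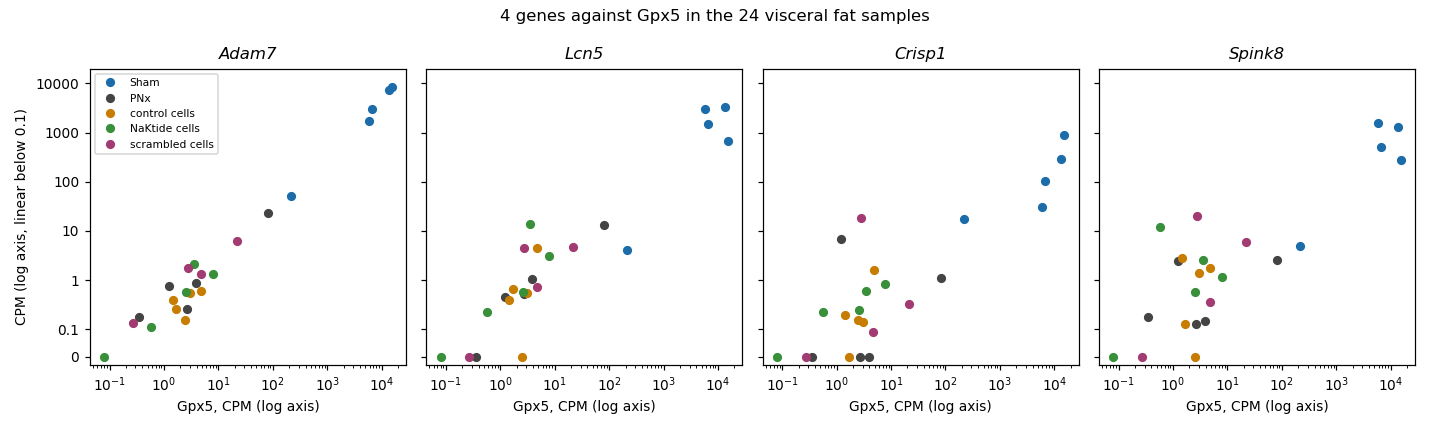
Level of Adam7, Lcn5, Crisp1 and Spink8 against that of Gpx5 (CPM, log axes, linear below 0.1 on the vertical axis) in the 24 VFAT samples, coloured by arm. Adam7 follows Gpx5 in and outside Sham, while scrambled cells 2 with 18.3 CPM of Crisp1 and 19.99 CPM of Spink8 stands above all other samples outside Sham for both genes.

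None of the 10 genes was called between the nephrectomised arms by edgeR's quasi-likelihood test with Benjamini-Hochberg adjustment over all genes. Control cells against PNx gave 0 calls among the 10 and 0% of all genes, and NaKtide cells against PNx gave 0 and 0%. NaKtide against scrambled cells gave 0, with 2.36% of all genes called, and scrambled against control cells gave 0, with 2.41% called. The median log2 fold change of the 10 was -2.75, -2.08, -1.23 and 2.19 in these comparisons, beside -0.0046, 0.0347, 0.0053 and 0.0036 over all genes. These comparisons share arms, and PNx 2 enters the first pair of them. The medians of the 10 also take in 5 genes that passed the filter only through the Sham arm. At an unadjusted p under 0.05 there were 5 of the 10 for control cells against PNx, where 2.52% of all genes were, and 2 for NaKtide cells against PNx, where 3.71% were. There was 1 each, Crisp1, for NaKtide against scrambled cells, with 19.4% of all genes, and for scrambled against control cells, with 15.7%. Of the 5, Rnase10, Lcn8 and Cst11 passed the filter only through the Sham arm, as did Crisp1. The 5 of 10 therefore cannot be set against the 2.52%. In the fit without Sham, Gpx5 and Adam7 were under 0.05 for control cells against PNx (edgeR unadjusted p = 0.0463 and 0.0123). Lcn5, Teddm2 and Spink8 were not. Within PNx, PNx 2 was highest for 9 of the 10 genes, so these are not separate results. DESeq2 and limma also called 0 of the 10 in each of these comparisons.

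For Gpx5 the log2 fold change was -2.67 ± 1.23 (SE) for control cells against PNx and -2.72 ± 1.23 for NaKtide cells against PNx, with edgeR adjusted p-values of 1 and 0.969. Crisp1 came nearest to a call, at -3.96 ± 1.61 for NaKtide against scrambled cells (edgeR adjusted p = 0.167) and 3.56 ± 1.57 for scrambled against control cells (edgeR adjusted p = 0.261). Both values include scrambled cells 2, the sample with 18.3 CPM, while the other 3 of its arm had 0 to 0.330 CPM. Fitted without the Sham arm, 5 of the 10 genes passed the filter, Gpx5, Adam7, Lcn5, Teddm2 and Spink8, and none was called. With approximate SEs above 1 on the log2 scale for most of the genes, differences of several-fold between these arms could go uncalled.

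The genes whose level was most like the mean log2 level of the 10 over the 24 samples, among 16447 ranked, were Rnase9 (Spearman rho 0.936), the beta-defensin Defb20 (0.930), Serpina1f of the serpin family (0.923), Spag11b (0.902) and Defb30 (0.901). AY761185, 9230104L09Rik, Wfdc10, Gm1110 and Muc15 completed the first 10, with rho down to 0.855. Defb20 was at 23.6 to 2315 CPM in Sham and at most 8.82 CPM elsewhere, and Muc15, which encodes a membrane mucin, was at 3.55 to 999.7 CPM in Sham and at most 1.43 CPM elsewhere. The ranking rests largely on the step between Sham and the other arms and is given as a description.

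Markers of the cells around the secretory epithelium were followed in the same samples. The calls given for these and the next lists stand beside 8.18% of all genes called lower in PNx and 13% called in either direction. These lists too were chosen with earlier results known. The sum of 5 genes of clear cells, the proton-secreting cells of the duct, was 7.90 CPM in Sham 2 and 62.2 to 169.9 CPM in the other Sham samples, against 5.47 to 46.5 CPM outside Sham. Of these genes 4 were called lower in PNx. The sum of 6 general epithelial genes ranged from 12.9 to 1733 CPM in Sham and from 1.87 to 634.9 CPM elsewhere, with 1 of 6 called. The highest sums outside Sham were 423.9 CPM in PNx, 522.4 CPM in control cells and 634.9 CPM in NaKtide cells, all in samples with less Gpx5 than any Sham sample. The sum of 4 basal cell genes overlapped, with 135.1 to 223.6 CPM in Sham and 48.9 to 197.7 CPM elsewhere, although 3 of 4 were called lower. Much of that sum was Itga6, at 34.6 to 191.8 CPM in Sham and 44.7 to 196.5 CPM elsewhere, with a log2 fold change of 0.62. The other genes, Krt5, Krt14 and Trp63, were at -9.35, -8.25 and -4.42. Among epididymal regulators and transporters, 3 of 8 were called lower.

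Genes of testicular germ cells were also high in most Sham samples, but in another order than the epididymal ones. Their sum over 7 genes was 28.5, 1.13, 172.4, 140.0 and 50.2 CPM in Sham 1 to Sham 5 and 0 to 25.4 CPM elsewhere. Sham 1, with the most epididymal transcripts, thus lay below Sham 3, Sham 4 and Sham 5. PNx 2 had 2.315 CPM of germ cell genes, against 25.4 CPM in scrambled cells 2 and 14.6 CPM in PNx 4. Of the germ cell genes 7 of 7 were called lower in PNx, where 8.18% of all genes were, with edgeR adjusted p-values up to 0.04999. Sham 3, with the highest Lcn5 and Spink8 per Gpx5 count, was also highest here. It further held 7095 CPM of 4 skeletal muscle genes, which were at 7.79 to 72.8 CPM in the other Sham samples and reached 26490 CPM in scrambled cells 2, and 4 of 4 of these were called lower in PNx. Adipocyte genes had 0 of 10 called lower in PNx and 1 higher, with a median log2 fold change of 0.82, and Leydig cell genes had 0 calls among the 2 tested of 4, at sums of 3.96 to 7.58 CPM in Sham. Of the other lists, macrophages had 2, and mesothelium and endothelium 1 gene each called higher. No gene was called among those of seminal vesicle, vas deferens, smooth muscle, pancreas, liver and proximal tubule, and none of the 4 prostate genes passed the filter. The part of these cells in the level of the 10 genes was not tested.

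**Figure D5:**
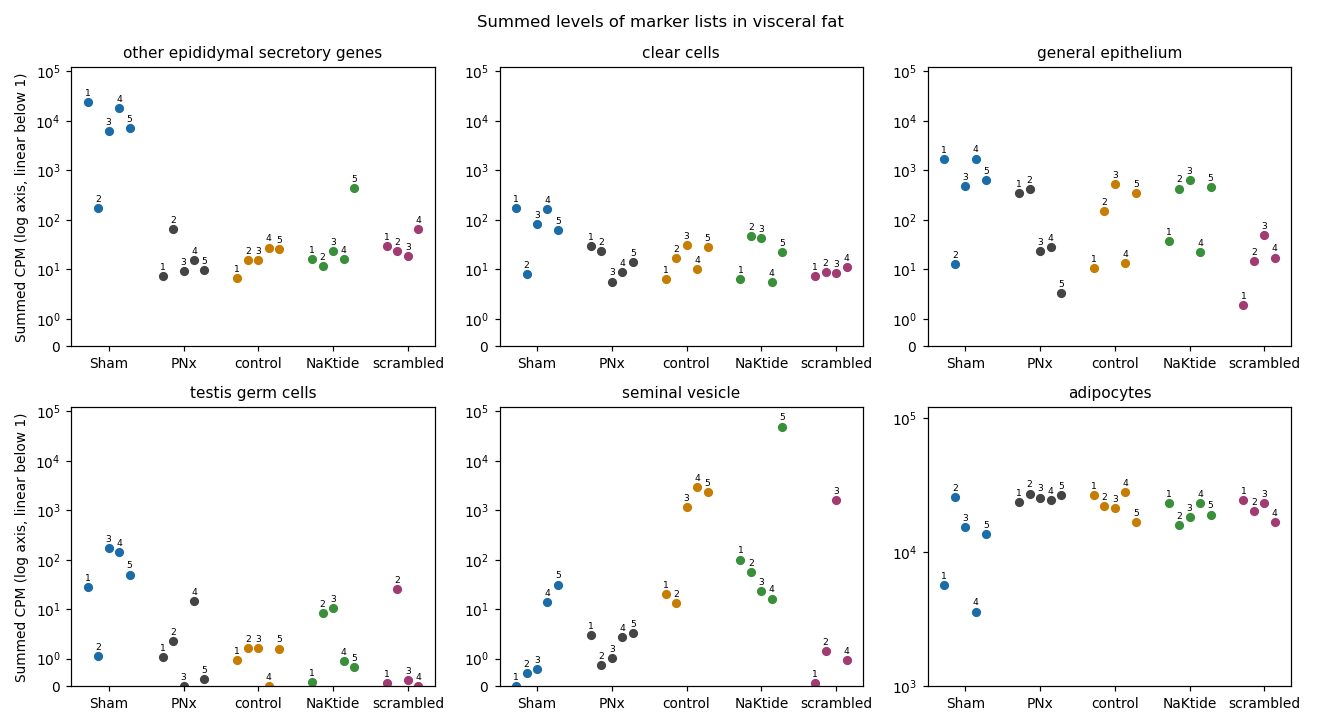
Summed level of 6 marker lists (CPM, log axis that is linear below 1) in the 24 VFAT samples by arm; each point is a sample with its number. Sham 1 and Sham 4 are highest for other epididymal genes and lowest for adipocyte genes, the adipocyte panel starting at 1000 CPM, and NaKtide cells 5 reaches 49010 CPM for seminal vesicle genes.

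In the 25 heart samples the 10 genes were close to absent, at most 0.308 CPM for 8 of them. Adam7, Lcn9 and Cst11 had no count in any heart sample. Teddm2 was counted in all 25 hearts, at 0.762 to 3.27 CPM, and in all 25 kidneys, at 0.0951 to 2.02 CPM. The medians were 1.34 CPM in heart and 0.721 CPM in kidney, beside 2.25 CPM in the 19 VFAT samples outside Sham. Spink8 was found in 6 hearts, at up to 1.78 CPM.

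In kidney Spink8 was present in all 25 samples, at 13.97 to 90.9 CPM, while Gpx5 had no count in 15 and Lcn9 in 25. Renal Spink8 was looked at after its level had been seen. It was at 16.8, 14.1, 16.4, 13.97 and 16.5 CPM in Sham 1 to Sham 5 and at 25.2, 21.2, 90.9, 33.4 and 40.4 CPM in PNx 1 to PNx 5. All PNx kidneys were above all Sham kidneys, so it stood in the opposite order to VFAT. The log2 fold change was 1.54 ± 0.43 (SE), with an edgeR adjusted p of 0.0281, in a comparison in which 16.8% of all genes were called. The call was lost without PNx 3 (0.99, edgeR adjusted p = 0.144), and without PNx 5, Sham 1, Sham 2, Sham 3 or Sham 4 in turn (edgeR adjusted p = 0.0503 to 0.0664). Over the other arms the level was 20.5 to 69.3 CPM.

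A single kidney library, scrambled cells 2, held 88 Gpx5, 54 Adam7, 162 Crisp1 and 9 Lcn5 counts, with 0 of Lcn8, Lcn9 and Rnase10. The next highest kidney had 3, 4, 7 and 0 counts of the first 4 genes. Crisp1 led Gpx5 in that library as it did in the VFAT sample with the same arm and number. The labels do not say whether both came from the same animal.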

How the data were processed

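RNA from heart, kidney and VFAT was sequenced, and the authors deposited a table of raw counts per gene and a table of FPKM values, per the file headers. Named in the submitters' processing notes are the build GRCm38, HISAT2 2.1.0, Trimmomatic 0.38 and DESeq2 in versions 1.20.0 and 1.20.1. No source used here gives the counting tool or its use of strand. The deposited counts were tested with edgeR 4.0.16 (TMM scaling, its expression filter by arm, quasi-likelihood test, 1 fit over the 5 VFAT arms), with Benjamini-Hochberg adjustment over all genes tested and a threshold of 0.05. The SE given with an edgeR log2 fold change is the size of that change divided by the square root of its F statistic. It was not taken from the fit and is approximate. DESeq2 1.42.0 and limma 3.58.1 were alternatives. The fit was tested on simulated data with known changes. Those changes were placed in well-counted genes that shared a single spread, so that test does not cover genes with few counts. FPKM was used only to compare genes. CPM in the text is a count scaled to a sample total of 1000000. Second libraries of a number were added to the first, in VFAT and in kidney. Gene positions come from the GRCm38 annotation. Python 3.11.15 with scipy 1.17.1 gave the permutation tests and the intervals.

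The genes named are the 10 chosen, the leading genes of the marker lists, and the 10 genes of highest Spearman rho with the mean log2 CPM of the 10, leaving out genes whose mean log2 CPM is below 0. Members and lists were chosen with earlier results of these data known. Other genes with values, among them Etv4, Ros1, Cst8, Adam28, Rnase9 and Lcn12 in the comparison of Sham samples, and the splitting of genes by their level in Sham 1 and Sham 3, were picked after values were seen. Of 23 pairs of samples with the same number in different arms, 6 had deviations correlated above 0.1 (range -0.748 to 0.629), so the numbers were not taken to pair the samples.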

Additional observations from a re-analysis of the deposited data

Results flagged for a closer look

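In 19 of 50 groups (10 genes in 5 arms) 1 sample lay far from the rest of its arm by Dixon's criterion. Chance would mark about 1 in 20 groups if they were independent and normally spread. These groups share samples across the 10 genes and often hold few counts, so the 19 cannot be compared with that rate. No Sham group was among them, 9 were in PNx, 4 in control cells, and 3 each in NaKtide cells and scrambled cells. PNx 2 stood above the other PNx samples for 8 genes, at 81.2 CPM for Gpx5, 23.3 CPM for Adam7, 13.3 CPM for Lcn5, 8.38 CPM for Lcn8, 7.17 CPM for Lcn9, 8.60 CPM for Rnase10, 4.63 CPM for Cst11 and 6.72 CPM for Teddm2. PNx 4 stood apart for Crisp1 at 6.69 CPM.

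Among the arms with cells, scrambled cells 2 stood apart for Crisp1 at 18.3 CPM, and scrambled cells 1 for Lcn9 at 2.42 CPM and Rnase10 at 1.43 CPM. NaKtide cells 3 did so for Lcn9 at 1.77 CPM, NaKtide cells 4 for Lcn5 at 13.5 CPM and NaKtide cells 5 for Spink8 at 12.1 CPM. Control cells 1 did so for Lcn9 at 0.933 CPM and Cst11 at 0.311 CPM, and control cells 2 for Lcn5 at 4.40 CPM and Crisp1 at 1.64 CPM. The values of Lcn9 and Cst11 in control cells 1 rest on a few counts.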

How the results depend on the processing

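The counts of called members kept their value under all alternatives run (DESeq2, limma, other scalings, no filter, only the arms compared, the handling of the second library, the replicate block and each sample left out): 10 of 10 for PNx against Sham and over the 5 arms, and 0 in the other 4 comparisons. The count of 10 says nothing of stability, since the choice of the genes fixed it. The fit with the replicate number as a block, the replicate block, gave a log2 fold change of -10.04 for Gpx5 in PNx against Sham and changed no call of a member. Leaving out each sample in turn, that of Gpx5 ran from -11.91 to -8.54, that of Crisp1 from -9.60 to -6.12 and that of Teddm2 from -9.46 to -7.94. The fit of the other 4 arms without Sham, and all alternatives for Spink8 in kidney, were chosen after seeing the data.

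The counts over all genes moved far more. For PNx against Sham there were 2283 calls, 4647 with limma, 384 with only these 2 arms, 1654 with the replicate block, and 1089 to 4057 with a sample left out, the extremes being without Sham 4 and without Sham 2. Over the 5 arms 3222 became 5646 with limma, 1889 with the replicate block and 1992 (without Sham 4) to 4525 with a sample left out. The 414 calls of NaKtide against scrambled cells became 1589 with DESeq2, 841 with limma, 65 with 2 arms, 179 with the replicate block and 147 to 740 with a sample left out (without NaKtide cells 3 and without scrambled cells 1). The 423 of scrambled against control cells became 1094, 0, 45 and 94 in the same order, with 228 without the Sham arm and 129 to 647 with a sample left out (without control cells 5 and without scrambled cells 1). NaKtide cells against PNx had 28 with DESeq2, 3795 with limma and 1 with 2 arms, and control cells against PNx 20 with DESeq2 and 39 with limma. The call for Spink8 in kidney was also lost with only Sham and PNx in the fit (edgeR adjusted p = 0.0651). Depth limits the arms outside Sham, where most of these genes had a few counts or none.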
